A study of Rattus norvegicus with 6 samples.

Results

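The STAT3 axis of rat pancreas was followed through 10 genes: the receptor genes Il6st, Osmr, Lifr, Il6r and Il4r, the transcription factor gene Stat3, and its known targets Socs3, Pim1, Bcl3 and Cebpd. They were chosen by gene symbol, with earlier results of these data known, and each was found once among the 34001 genes of the deposited table. All 10 had a mean of at least 1 TPM (an abundance divided by gene length and scaled to the library total) and were among the 11477 genes tested. Pancreas came from 6 Sprague-Dawley rats, an outbred strain, with 2 rats in each of 3 groups. Control rats had laparotomy, gentle turning of the pancreas with swabs and 1 ml of saline by tail vein, without a crush. Rats of the TP group (traumatic pancreatitis) had the gland crushed by an impactor at 3 cm2 and 10 kg and also received 1 ml of saline. Rats of the TP+hucMSC-Exs group had the same crush and received exosomes by tail vein at 10 μg per 100 g. Exosomes are secreted vesicles, here from mesenchymal stem cells of human umbilical cord. The TP group is also called crush alone here, and the TP+hucMSC-Exs group crush with exosomes. All tissue was taken 24 h after the operation from rats whose age and sex the labels leave out. The samples were whole tissue, in which fewer cells of a type and less RNA per cell cannot be told apart. TPM sum to the same total in each library and keep no sequencing depth, so the depth behind each value is unknown.

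As background, cytokines of the interleukin 6 family signal through gp130, the shared receptor chain encoded by Il6st, which pairs with a chain specific to the ligand. Kinases of the JAK family bound to these chains then phosphorylate STAT3, which enters the nucleus and switches on genes that include Socs3, the product of which blocks the receptor. In pancreas this pathway is known from acute pancreatitis, from acinar-to-ductal metaplasia and from the induction of secreted Reg3 proteins.

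The 6 libraries differed in ways that reach all genes. In TP replicate 2 the median gene stood 3 (log2) above the control mean, against 0 in TP replicate 1 and, after crush with exosomes, 0.97 and 1.22. The labelled tissue was checked by 8 acinar markers, which summed to between 112363 and 467192 TPM, lowest in TP replicate 2. That library also held 4.58% of its TPM in mitochondrially encoded genes, against 0.582% to 0.928% in the others. Values are therefore given as deposited and after median-of-ratios scaling, which divides each library by 1 factor so that the typical gene is level. The factors ran from 0.359 to 1.46 in 5 libraries and reached 5.38 in TP replicate 2. Scaled TPM are comparable with each other but not with deposited TPM.

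No member passed limma over all genes at an adjusted p below 0.05, in any of the 3 comparisons, as deposited or scaled. Osmr, Socs3, Pim1 and Bcl3 were higher, after scaling, in all 4 libraries of crushed pancreas than in both control libraries, as were 11.9% of all genes tested. Lifr was lower in all 4 of them, as were 7.77% of genes. Stat3 itself, Il6st and Il6r had scaled group means close to those of the controls. Single libraries differed more: for Il6st and Il6r, TP replicate 1 lay below both controls and TP replicate 2 above both. For Stat3 both TP libraries lay below both controls and both TP+hucMSC-Exs libraries above. As deposited, the libraries of crush alone had the largest SD of the 3 groups for every member.

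**Figure D1:**
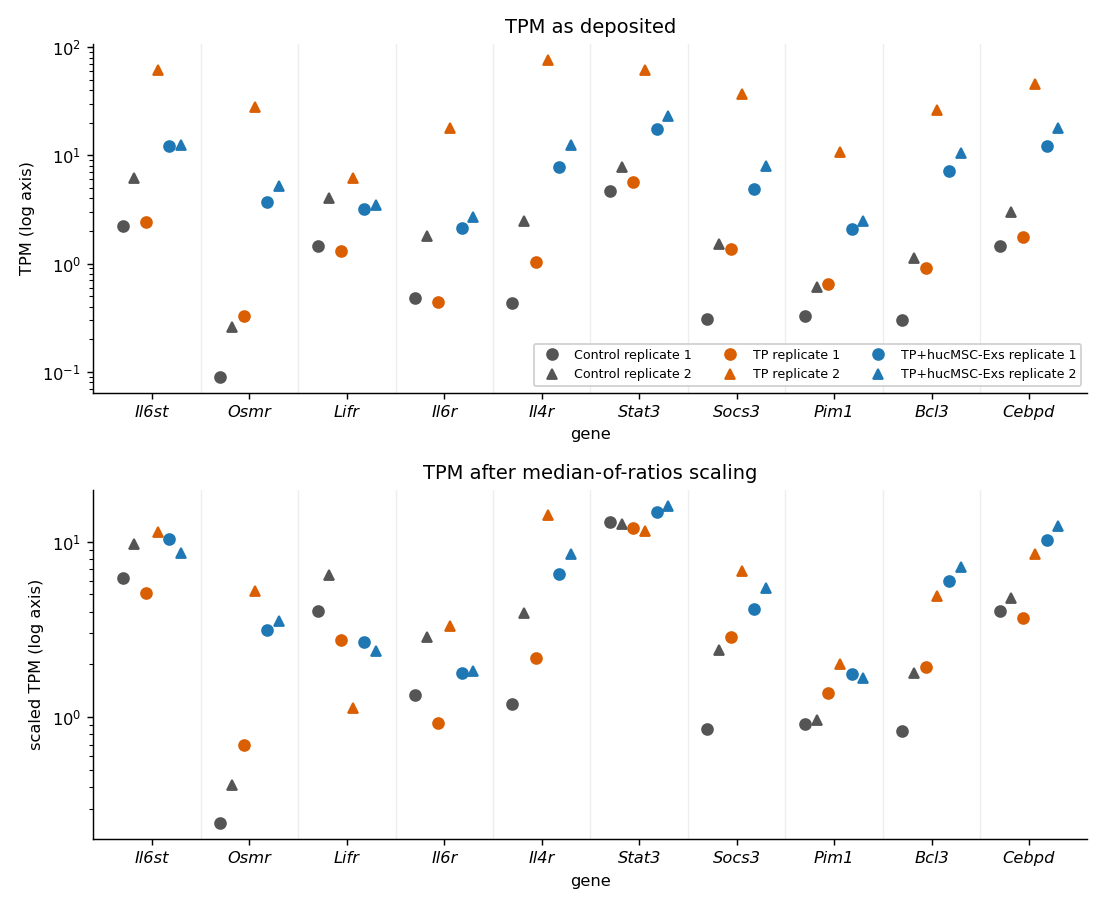
Level of each of the 10 genes (x axis) in the 6 libraries, as deposited TPM (top) and as scaled TPM (bottom), both on log axes, with circles for replicate 1 and triangles for replicate 2. TP replicate 2 is the highest library for all 10 genes as deposited, with 76.2 TPM of Il4r, and after scaling Stat3 lies between 11.4 and 15.9 in all 6 libraries.

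Il6st, the gp130 chain that all cytokines of this family use, stood at 2.22 and 6.12 TPM in the controls, 2.42 and 61.1 TPM after crush alone and 12.3 and 12.5 TPM after crush with exosomes. After scaling the same libraries stood at 6.19 and 9.74, at 5.11 and 11.4, and at 10.3 and 8.57. The scaled values of the 3 groups overlapped. On scaled values the log2 fold change was -0.02 ± 0.45 (SE) for TP against control and 0.26 ± 0.45 for crush with exosomes against control (limma, n = 2 per group, adjusted p = 0.990 and 0.869).

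Osmr encodes the chain that pairs with gp130 to bind oncostatin M, and it had the largest scaled fold change against control of the 10 genes. Its deposited levels were 0.09 and 0.26 TPM in the controls, 0.33 and 28.1 TPM after crush alone and 3.72 and 5.15 TPM after crush with exosomes. Scaled, these were 0.251 and 0.414, then 0.697 and 5.22, then 3.13 and 3.52. All 4 libraries of crushed pancreas were above both controls on both scales, TP replicate 1 by the smallest margin. By rank, Osmr lay at percentile 9.47 and 6.89 of the tested genes in the controls, at 16.7 and 69.6 after crush alone and at 54.2 and 57.5 after crush with exosomes. The log2 fold change of scaled values was 1.66 ± 0.74 (SE) for TP against control and 2.20 ± 0.74 for crush with exosomes against control (limma, n = 2 per group, adjusted p = 0.710 and 0.471). The deposited values gave 2.86 ± 1.43 and 2.87 ± 1.43 (adjusted p = 0.555 and 0.8). Control values below 0.5 TPM lie at or under the pseudocount, so these fold changes understate the ratio of the levels.

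The sequence just upstream of the annotated Osmr start is shown because Osmr had the largest fold change value among the receptors. Sequences are from RefSeq (build GRCr8), run 5′ to 3′ and end 1 base before the annotated start. Capitals mark TTCC and its reverse complement GGAA. They hold TTC and GAA, the outer letters of a STAT element, with a further base that the full element searched here leaves free.
Osmr, chr2:57688562-57688711, minus strand: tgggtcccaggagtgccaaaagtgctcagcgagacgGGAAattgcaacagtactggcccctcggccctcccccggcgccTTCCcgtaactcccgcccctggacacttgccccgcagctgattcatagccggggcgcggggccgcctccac
The full element searched was TTCNNNGAA, which reads the same on both strands, in windows of 300 bases from 250 before to 50 after the start. It was in 0 of the 9 members that had a window, and in 8.87% of all 33469 windows. The spacing TTCNNNNGAA was in 0 of 9 members and 7.28% of all windows, while TTCC or GGAA was in 8 of 9, all but Lifr, and in 95.8% of all. These counts say only that the letters are not in these windows. Annotated starts can differ from the starts used in pancreas, and Cebpd was not among the windows. The Socs3 window holds the start of its coding sequence, so it is not upstream sequence alone.

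Lifr, the chain that pairs with gp130 for leukaemia inhibitory factor, was the only member whose scaled levels were lower in all 4 libraries of crushed pancreas than in both controls, beside 7.77% of all genes. As deposited it was 0 of 10 members, beside 0.488% of genes. Deposited levels were 1.44 and 4.03 TPM in the controls, 1.31 and 6.12 TPM after crush alone and 3.18 and 3.48 TPM after crush with exosomes, which overlap. After scaling they were 4.01 and 6.41 in the controls against 2.77 and 1.14 after crush alone and 2.67 and 2.38 after crush with exosomes. After scaling, the log2 fold change was -1.27 ± 0.41 (SE) for crush alone and -0.89 ± 0.41 for crush with exosomes against control (limma, n = 2 per group, adjusted p = 0.710 and 0.599). As deposited the direction was the opposite, at 0.22 ± 1.42 and 0.37 ± 1.42. The sign for Lifr therefore depended on the scaling.

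Il6r, the interleukin 6 binding chain, stood at 0.48 and 1.81 TPM in the controls, 0.44 and 17.8 TPM after crush alone and 2.13 and 2.69 TPM after crush with exosomes. Scaled levels of 1.34 and 2.88, 0.929 and 3.31, and 1.79 and 1.84 overlapped in all 3 groups. The scaled log2 fold change of TP+hucMSC-Exs against control was -0.11 ± 0.56 (SE; limma, adjusted p = 0.968).

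Il4r, the interleukin 4 receptor alpha chain and a known STAT3 target, had the widest range of the receptors in deposited TPM (highest minus lowest), while Osmr had the wider range as a ratio. It stood at 0.43 and 2.46 TPM in the controls, 1.03 and 76.2 TPM after crush alone and 7.82 and 12.4 TPM after crush with exosomes. Scaled levels were 1.20 and 3.91, then 2.18 and 14.2, then 6.57 and 8.47. The TP+hucMSC-Exs libraries lay above both controls, while TP replicate 1 lay between them. The scaled log2 fold change was 1.54 ± 0.91 (SE) for crush with exosomes against control (limma, adjusted p = 0.666).

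Ratios of genes within a library do not change with scaling; which ratios to show was chosen after the values were seen. The ratio of Osmr to Il6st was 0.0405 and 0.0425 in the controls, 0.136 and 0.459 after crush alone, and 0.304 and 0.411 after crush with exosomes, a mean of 0.357 ± 0.0757 (SD, n = 2). The ratio of Lifr to Il6st was lower after crush, with 0.649 and 0.658 in the controls, 0.541 and 0.1 after crush alone and 0.26 and 0.278 after crush with exosomes. Osmr per Lifr was therefore 0.0625 and 0.0645 in the controls, 0.252 and 4.58 after crush alone and 1.17 and 1.48 after crush with exosomes. All 4 libraries of crushed pancreas lay above the controls in the ratios of Osmr to Il6st and to Lifr, and below them in that of Lifr to Il6st. Of all genes tested, 9.45% lay above the controls in this way in their ratio to Il6st and 1.77% below, and 60.2% lay above in their ratio to Lifr. Il4r per Il6st also lay above, at 0.194 and 0.402 in the controls and 0.426 to 1.25 in the other 4 libraries. The ratio of Il6r to Il6st overlapped, at 0.216 and 0.296 in the controls and between 0.174 and 0.292 in the other 4 libraries. A comparison of 4 libraries with 2 cannot give an exact permutation p below 0.0667 (two-sided), so these ratios are given without a test.

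Stat3 was the most abundant of the 10 genes in the mean of control rats and in that of crush with exosomes. It stood at 4.65 and 7.88 TPM in the controls, 5.67 and 61.5 TPM after crush alone and 17.6 and 23.3 TPM after crush with exosomes. Scaled levels were 13.0 and 12.5 in the controls, 12.0 and 11.4 after crush alone, and 14.8 and 15.9 after crush with exosomes. The scaled log2 fold change of TP+hucMSC-Exs was 0.38 ± 0.22 (SE) against TP and 0.26 ± 0.22 against control, while TP against control gave -0.12 ± 0.22 (limma, n = 2 per group, adjusted p = 0.826, 0.744 and 0.849). As deposited, the log2 fold change of TP against control was 1.57 ± 1.41, near the 1.495 of the median gene. The upstream sequence is shown beside that of Osmr because Stat3 kept a near-level scaled abundance; capitals again mark TTCC and GGAA.
Stat3, chr10:86363360-86363509, minus strand: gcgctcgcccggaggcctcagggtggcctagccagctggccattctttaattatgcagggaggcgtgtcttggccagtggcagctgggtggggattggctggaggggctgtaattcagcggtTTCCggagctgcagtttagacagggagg

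Socs3, the feedback inhibitor of gp130 signalling, stood at 0.31 and 1.51 TPM in the controls, 1.35 and 36.5 TPM after crush alone and 4.93 and 7.93 TPM after crush with exosomes. Scaled levels were 0.864 and 2.40, 2.85 and 6.79, and 4.14 and 5.42, so that all 4 libraries of crushed pancreas lay above both controls. On scaled values the log2 fold change was 1.31 ± 0.54 (SE) for crush alone and 1.40 ± 0.54 for crush with exosomes against control (limma, n = 2 per group, adjusted p = 0.710 and 0.533). Control replicate 2, the higher control, lay just below TP replicate 1.

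Pim1, a serine/threonine kinase that promotes survival, was low throughout, at 0.33 and 0.61 TPM in the controls, 0.65 and 10.8 TPM after crush alone and 2.10 and 2.46 TPM after crush with exosomes. Its scaled controls were close together at 0.920 and 0.970, below 1.37 and 2.00 after crush alone and 1.77 and 1.68 after crush with exosomes. Scaled log2 fold changes against control were 0.58 ± 0.24 (SE) for crush alone and 0.62 ± 0.24 for crush with exosomes (limma, adjusted p = 0.710 and 0.533). These were the smallest changes among the 4 members that separated from the controls.

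Bcl3, an atypical IκB protein that binds NF-κB p50 and p52 dimers, stood at 0.30 and 1.13 TPM in the controls, 0.91 and 26.3 TPM after crush alone and 7.09 and 10.5 TPM after crush with exosomes. Scaled levels were 0.836 and 1.80, 1.92 and 4.88, and 5.96 and 7.19. Both TP+hucMSC-Exs libraries were above both TP libraries, and TP replicate 1 was only just above control replicate 2. The scaled log2 fold change against control was 2.01 ± 0.48 (SE) for TP+hucMSC-Exs and 1.04 ± 0.48 for TP (limma, n = 2 per group, adjusted p = 0.317 and 0.710). TP+hucMSC-Exs against TP gave 0.96 ± 0.48 (adjusted p = 0.778). The Bcl3 upstream sequence is shown because this gene had the lowest unadjusted p of the 10 genes, 0.00857, in TP+hucMSC-Exs against control after scaling.
Bcl3, chr1:88613556-88613705, minus strand: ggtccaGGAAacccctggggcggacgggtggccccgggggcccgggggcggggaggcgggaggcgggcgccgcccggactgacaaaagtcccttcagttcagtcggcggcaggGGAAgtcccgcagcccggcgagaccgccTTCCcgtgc

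Cebpd, the acute-phase transcription factor C/EBP delta, stood at 1.44 and 3.01 TPM in the controls, 1.75 and 45.5 TPM after crush alone and 12.2 and 17.9 TPM after crush with exosomes. Scaled levels were 4.01 and 4.79, then 3.70 and 8.47, then 10.3 and 12.2. TP replicate 1 lay below both controls, and both TP+hucMSC-Exs libraries were the highest of the 6. After scaling, the log2 fold change was 1.26 ± 0.41 (SE) for crush with exosomes against control and 0.93 ± 0.41 against TP (limma, n = 2 per group, adjusted p = 0.450 and 0.736).

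**Figure D2:**
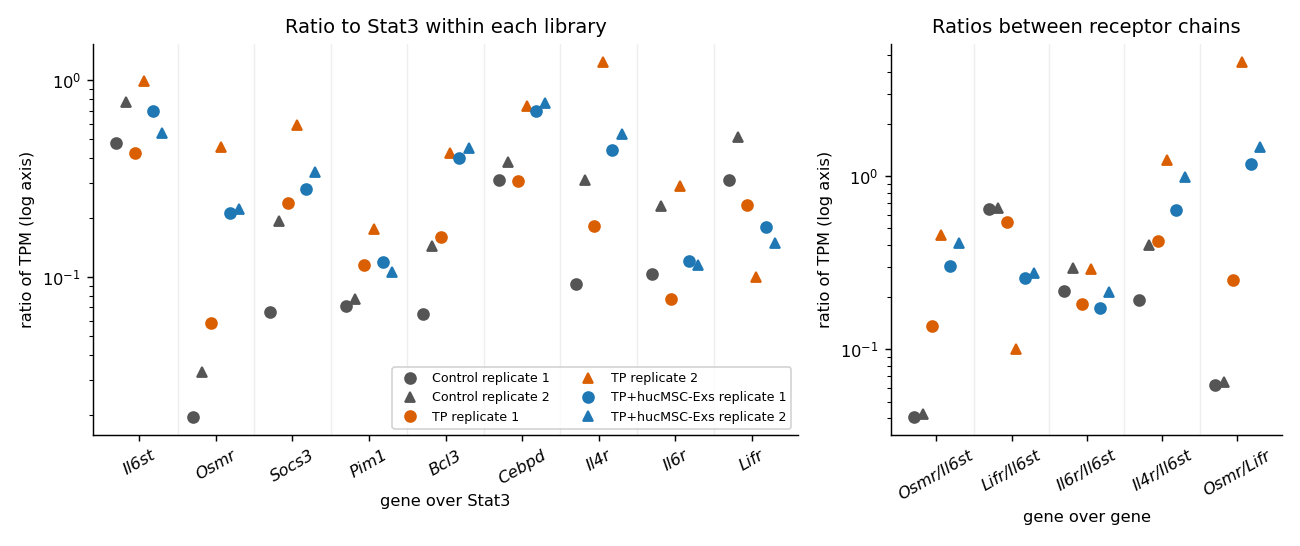
Ratio of each gene's TPM to that of Stat3 (left) and ratios between receptor genes (right) in the 6 libraries, on log axes, with circles for replicate 1 and triangles for replicate 2. Osmr per Stat3 is 0.0194 and 0.0330 in the controls and 0.0582 to 0.456 in the 4 libraries of crushed pancreas, and Lifr per Stat3 is 0.310 and 0.511 in the controls and at most 0.231 in the others.

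Against Stat3 as the internal reference, 4 of the other 9 members (Osmr, Socs3, Pim1 and Bcl3) were higher in all 4 libraries of crushed pancreas than in both controls, and 1 (Lifr) was lower. Of all other genes tested, 10.1% were higher and 7.55% lower in this way. Socs3 per Stat3 was 0.0667 and 0.192 in the controls, 0.238 and 0.594 after crush alone and 0.28 and 0.34 after crush with exosomes. Bcl3 per Stat3 was 0.0645 and 0.143 in the controls, 0.16 and 0.427 after crush alone and 0.402 and 0.452 after crush with exosomes. Because scaled Stat3 was near level, these ratios largely repeat the scaled values and are not a second result. On the scaled values the same 4 genes were higher in all 4 libraries, against 11.9% of all genes tested. Without TP replicate 2 it was 3 genes, since Bcl3 no longer separated, against 14.3% of genes, and without TP replicate 1 it was 6, with Cebpd and Il4r added, against 22.1%. Without control replicate 2 it was 5, with Il4r added, against 27.9%. As deposited only Osmr and Pim1 separated, against 22% of genes.

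The order of the members within the tissue also differed between the groups. In the controls the mean deposited levels ran from Stat3 (6.27 ± 2.28 TPM, SD, n = 2) and Il6st (4.17 ± 2.76) through Lifr (2.74 ± 1.83), Cebpd (2.23 ± 1.11), Il4r (1.45 ± 1.44), Il6r (1.15 ± 0.94), Socs3 (0.910 ± 0.849), Bcl3 (0.715 ± 0.587) and Pim1 (0.470 ± 0.198) to Osmr (0.175 ± 0.12). Neighbours in that order differed by less than the larger of their SDs, apart from Pim1 and Osmr. In the TP+hucMSC-Exs group the order was Stat3 (20.5 ± 4 TPM, SD, n = 2), Cebpd (15.1 ± 4), Il6st (12.4 ± 0.205), Il4r (10.1 ± 3.24), Bcl3 (8.81 ± 2.43), Socs3 (6.43 ± 2.12), Osmr (4.44 ± 1.01), Lifr (3.33 ± 0.212), Il6r (2.41 ± 0.396) and Pim1 (2.28 ± 0.255). Here Stat3 and Cebpd, Osmr and Lifr, and Lifr and Il6r differed by more than the larger SD, and the other neighbours by less. That SD is between libraries, while the genes share each library, so it does not test the order within a library. Both libraries of this group held the same order, except that Cebpd (12.22 TPM) lay just below Il6st (12.25 TPM) in replicate 1. Osmr, the lowest member in control rats, stood above Lifr, Il6r and Pim1 after crush with exosomes. The order in the TP means rests on TP replicate 2, whose highest members were Il4r (76.2 TPM), Stat3 (61.5 TPM) and Il6st (61.1 TPM).

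For the crush injury against control, the deposited log2 fold changes of the 10 members had a median of 1.94, beside a median of 1.495 over all genes. With limma 0 of 10 members passed, where 0.0523% of genes were called higher and 0% lower. At an unadjusted p below 0.05 it was 1 of 10, Osmr, beside 3.96% of genes. Both TP libraries exceeded both controls for 2 members, Osmr and Pim1, beside 23.1% of genes, and were below both for 0 of 10, beside 1.09%. After scaling the members' median was 0.46 against 0.015 for all genes. Scaled values did not overlap for 4 higher members, Osmr, Socs3, Pim1 and Bcl3 (17.7% of genes), and 2 lower members, Stat3 and Lifr (12.9% of genes). At an unadjusted p below 0.05 the scaled values gave 0 of 10 higher, beside 3.61% of genes, and 1 lower, Lifr, beside 2.22%. The deposited differences rested on TP replicate 2: without it the log2 fold change was 0.31 for Osmr, 0.54 for Socs3, 0.30 for Bcl3, -0.09 for Stat3 and -0.54 for Il6st, and 0 of 10 members passed, where 0.26% of genes were called higher and 0.079% lower. With scaling as well it was again 0 of 10, where 0.0565% of genes were higher. Without TP replicate 1, 9 of 10 members passed as higher, but so did 91.5% of genes, with 1.73% lower. With scaling as well, 2 were higher (Osmr and Pim1, beside 13% of genes) and 1 lower (Lifr, beside 10.9%).

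For exosome-treated against untreated crush, no direction could be given for the deposited values. Both TP+hucMSC-Exs libraries lay between the TP libraries for 10 of 10 members, as they did for 87.2% of all genes. The members' median log2 fold change was -0.03, against -0.375 for all genes, and 0 of 10 passed limma, where 0.0523% of genes were called higher and 0.0174% lower. At an unadjusted p below 0.05 it was 0 of 10, beside 0.758% of genes higher and 0.566% lower. Deposited values did not overlap for 0 of 10, beside 5.09% of genes higher and 1.62% lower. Without TP replicate 1, 8 of 10 members passed as lower (79.7% of genes), and without TP replicate 2, 7 of 10 passed as higher (40.1% of genes). In fits without TP replicate 2, 4 members (Bcl3, Il6r, Osmr and Pim1) reached the expression filter only through the exosome libraries, so their calls there are no support for a difference. After scaling the median was 0.36 against -0.017, and Stat3, Bcl3 and Cebpd were higher in both treated libraries than in both TP libraries (3 of 10, beside 18.2% of genes), and 0 of 10 were lower (17.8% of genes). Unadjusted p below 0.05 was met by 0 of 10 scaled members, beside 5.09% of genes higher and 2.09% lower. With scaling, 0 of 10 members passed without TP replicate 1, beside 5.86% of genes higher and 5.59% lower, or without TP replicate 2, beside 0.542% higher and 0.226% lower.

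For exosome-treated crush against control, the members had a median deposited log2 fold change of 2.03, against 1.093 for all genes. Both treated libraries exceeded both controls for 9 of 10 members, all but Lifr, beside 86.9% of genes, a share near that of the members, and 0 of 10 were lower (1.63% of genes). With limma 0 of 10 passed, where 0.209% of genes were called higher and 0% lower. Unadjusted p below 0.05 was met by 2 of 10, Osmr and Bcl3, beside 2.85% of genes higher and 0.0958% lower. After scaling the median was 0.94 against 0.004. Scaled values were higher in both treated libraries for 7 of 10 members (Osmr, Socs3, Pim1, Bcl3, Cebpd, Il4r and Stat3), beside 30.8% of genes, and lower for 1, Lifr, beside 29% of genes. At an unadjusted p below 0.05 it was 5 of 10 higher (Osmr, Socs3, Pim1, Bcl3 and Cebpd), beside 6.52% of genes, and 0 of 10 lower, beside 2.8%. Fitted on the groups compared alone, without scaling, limma called 8 of 10 members higher, but also 70.1% of genes, and 4 members (Bcl3, Osmr, Pim1 and Socs3) reached the filter of that fit only through the exosome libraries. Unscaled, it was also 8 of 10 without TP replicate 1 (50.8% of genes) and without TP replicate 2 (68.6% of genes). With scaling and without TP replicate 2, 3 of 10 passed as higher, namely Osmr (1.97, adjusted p = 0.0304), Bcl3 (1.89, adjusted p = 0.044) and Cebpd (1.23, adjusted p = 0.0403), beside 5.89% of genes. Of these 3, Cebpd alone reached the filter without the exosome libraries. With scaling and without TP replicate 1 it was Osmr alone (2.30, adjusted p = 0.0454), beside 1.27% of genes.

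**Figure D3:**
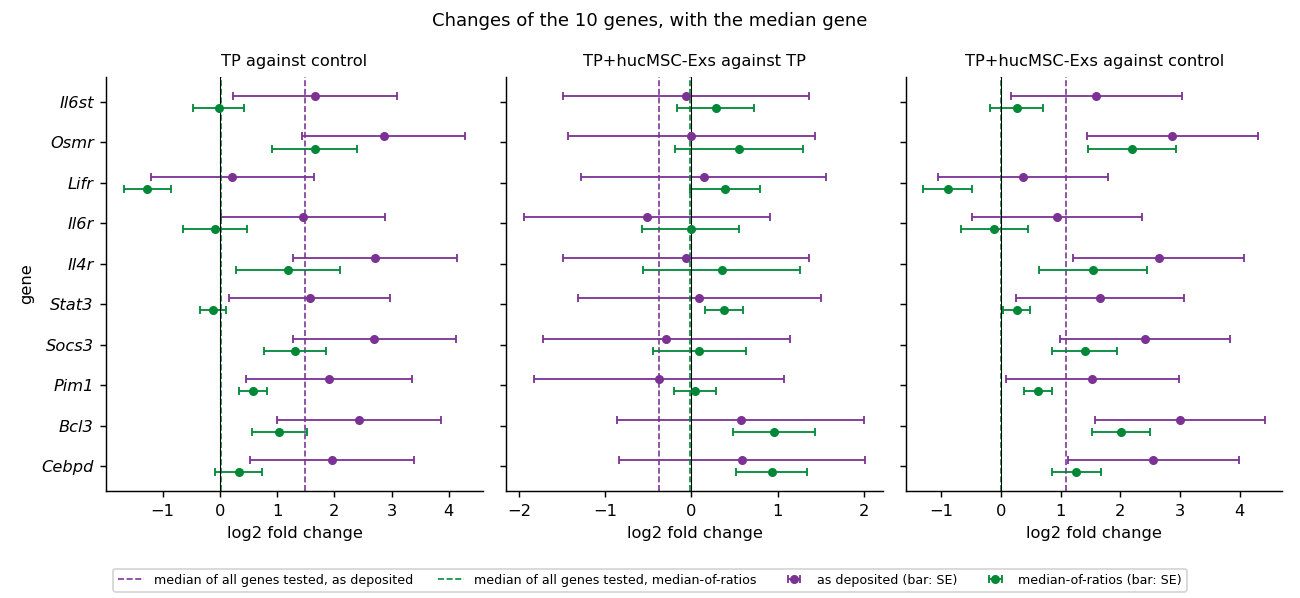
Log2 fold change of each gene with its SE (bars) in the 3 comparisons, from limma on deposited values (purple) and scaled values (green), with dashed lines at the median of all genes tested. Against control, Osmr at 2.20 and Bcl3 at 2.01 lie farthest right of the scaled points in the TP+hucMSC-Exs panel and Lifr at -0.89 farthest left.

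The other genes of the pathway were taken from a list of 47, of which 45 were analysed here and 35 passed the expression filter. Ligands of gp130 were scarce, with 3 of 10 tested and 0 past the threshold in any comparison. Il6 stood at 0 and 0.16 TPM in the controls, 0 and 0.69 TPM after crush alone and 0.21 and 0.23 TPM after crush with exosomes. Lif was at 0 and 0.03, 0 and 1.1, and 0.77 and 0.99 TPM. Osm, the ligand of Osmr, was at 0 and 0.09, 0.03 and 2.46, and 0.22 and 0.31 TPM. These 3 ligands were below the filter and were not tested. By mean over the 6 libraries the most abundant ligand genes were Ebi3 and Ctf1. Ebi3, a subunit of interleukin 27, reached 21.3 TPM in TP replicate 2 and had 0.18 TPM in TP replicate 1. Controls stood at 0 and 0.47 TPM and libraries of crush with exosomes at 0.39 and 1.65 TPM. The place of Ebi3 before Ctf1 rests on TP replicate 2, since Ctf1 was higher in every other library. Ctf1, which encodes cardiotrophin 1, stood at 1.23 and 1.22 TPM in control rats, 1.27 and 3.58 TPM after crush alone, then 2.23 and 2.35 TPM after crush with exosomes. Scaled levels were 3.43 and 1.94, then 2.68 and 0.666, then 1.87 and 1.61, the last group below both controls. The log2 fold change of crush with exosomes against control was -0.47 ± 0.54 (SE) scaled, but 0.69 ± 1.44 as deposited.

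Among the other receptor chains 0 of 3 tested passed in any comparison, led in mean level over the 6 libraries by Il2rg, the common gamma chain of lymphocyte receptors, and Il11ra1, the interleukin 11 receptor. Il11ra1 stood at 2.94 and 3.85 TPM in the controls, 3.95 and 13.5 TPM after crush alone and 5.90 and 6.49 TPM after crush with exosomes. Il2rg had 0.29 and 7.98 TPM in control rats, 0.56 and 48.5 TPM after crush alone, then 2.78 and 4.67 TPM after crush with exosomes. Its place before Il11ra1 rests on TP replicate 2. Scaled Il2rg levels were 0.808 and 12.7, then 1.18 and 9.01, then 2.34 and 3.19, which overlap. Of the kinases 0 of 3 passed: Jak1 had a scaled log2 fold change of -0.34 ± 0.24 (SE) and Jak2 of 0.67 ± 0.54 for crush with exosomes against control (limma, adjusted p = 0.707 and 0.732). Of the other STAT genes 0 of 5 tested passed, with Stat6 at 0.47 ± 0.46 (limma, adjusted p = 0.772). Of the other inhibitors 0 of 8 passed. By mean over the 6 libraries the most abundant were the phosphatase genes Ptpn6, mostly of blood cells, at -0.05 ± 0.43, and Ptpn11, which encodes SHP2, at 0.07 ± 0.24 (adjusted p = 0.981 and 0.943). The place of Ptpn11 rests on TP replicate 2, at 33.1 TPM. After crush with exosomes Ptpn2, which encodes a phosphatase of JAK and STAT proteins, was higher, at 7.97 and 10.5 TPM against 5.44 and 6.44 TPM of Ptpn11. Its scaled change against control was 1.18 ± 0.19 (limma, adjusted p = 0.194).

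The calls in the pathway list all fell among 13 other known STAT3 targets that were tested, which include secreted acute-phase proteins picked with their behaviour in these libraries already known. As deposited, 3 rose in TP against control (Reg3b, Lcn2 and Timp1), beside 0.0523% of all genes tested. In TP+hucMSC-Exs against TP it was 1 (Reg3g), beside 0.0523% of genes, and in TP+hucMSC-Exs against control 4 (Reg3b, Reg3g, Lcn2 and Hamp), beside 0.209%. Of the 3 in TP against control, Timp1 stood at 0.92 and 2.98 TPM in the controls and 13.3 and 1089 TPM after crush alone. Scaled Reg3b in TP replicate 2 was 353.6, below both controls at 558.7 and 393.2. Scaled Lcn2 and Timp1 were above both controls in both TP libraries. None of the 3 passed in that comparison after scaling. Hamp encodes hepcidin, a hormone of iron balance. It had 26.3 and 55.0 TPM after crush with exosomes and 0.4 TPM in TP replicate 2, and the other 3 libraries list it at 0. It reached the expression filter only through the exosome libraries and had to differ. Its call is therefore no support for a difference, and its levels are a description. After scaling, no other gene of the list passed. Reg3g stood at 0.13 and 0.37 TPM in the controls, 75.3 and 1.40 TPM after crush alone and 755.9 and 1781 TPM after crush with exosomes. Scaled Reg3g in TP replicate 2 was 0.260, below both controls at 0.362 and 0.589. Its scaled change for TP+hucMSC-Exs against TP was 6.32 ± 2.46 (SE, limma, adjusted p = 0.691). For Reg3b the levels were 200.4 and 247 TPM in control rats, 15906 and 1902 TPM after crush alone, then 38509 and 45798 TPM after crush with exosomes; its scaled change of 6.08 ± 2.20 did not pass (adjusted p = 0.515). Junb, an immediate early gene, had 2.66 and 5.75 TPM in control rats, 3.12 and 83.0 TPM after crush alone, then 24.8 and 39.0 TPM after crush with exosomes, a scaled change of 1.46 ± 0.45 for the last against control (limma, adjusted p = 0.418).

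Of the pathway genes 33 had a RefSeq window, and TTCNNNGAA was in 5 of them (Socs1, Cish, Bcl2l1, Reg3b and Hamp), against 8.87% of all windows. Among the called targets it was in Reg3b, starting 129 bases before the annotated start. It was also in Hamp, starting 117 bases before its start, a gene whose call is no support because of the filter. Their upstream sequences are shown because they hold the full element that the member windows lack; capitals mark TTCNNNGAA. A match is a description of letters and not a bound site.
Reg3b, chr4:112419626-112419775, plus strand: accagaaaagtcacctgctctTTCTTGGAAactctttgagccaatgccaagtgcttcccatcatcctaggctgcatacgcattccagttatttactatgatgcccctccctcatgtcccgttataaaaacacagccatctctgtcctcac
Hamp, chr1:95300272-95300421, minus strand: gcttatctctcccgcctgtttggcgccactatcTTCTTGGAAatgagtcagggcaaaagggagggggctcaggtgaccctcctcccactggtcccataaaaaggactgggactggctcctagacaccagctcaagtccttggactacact

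Genes of like pattern were sought for 3 members among 4867 named genes with a mean of at least 5 TPM, by the root-mean-square difference of centred scaled log2 values over the 6 libraries. Among the nearest to Stat3 were Clk3, a kinase of splicing factors, and Marchf5, a ubiquitin ligase of mitochondria, each at 0.05. Among the nearest to Osmr were S100a10 (0.11) and B4galt5 (0.13), and the nearest to Socs3 were Pycard (0.17), Skap2 (0.19) and Arpc1b (0.22). Of the other members, Bcl3 and Il4r were nearest to Osmr, at 0.43 each, and Lifr was farthest, at 1.71. Bcl3 was also nearest to Socs3, at 0.38, and Pim1 was nearest to Stat3, at 0.32. With 6 libraries and 3 groups many genes share a pattern, and the distances are a description only.

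Marker lists of other cell types differed between the libraries, each in its own way. Adipocyte, macrophage, neutrophil, fibroblast, endothelial and mesothelial sums were highest in TP replicate 2, duct and islet sums in a library of crush with exosomes, and the lymphocyte sum in control replicate 2. The 7 macrophage markers summed to 9.12 and 117 TPM in the controls, 36.8 and 4406 TPM after crush alone and 387 and 734 TPM after crush with exosomes. The 6 neutrophil markers summed to 0.50 and 3.09, 3.02 and 480.3, and 56.9 and 103 TPM; of these, Mpo was listed at 0 in both treated libraries and in TP replicate 1. The 6 duct markers summed to 16.4 and 18.8 TPM in the controls, 19.0 and 14.6 TPM after crush alone and 130.5 and 174 TPM after crush with exosomes. The 7 adipocyte markers summed to 6031 TPM in TP replicate 2 and to 18.8 to 46.5 TPM elsewhere, with Lep listed at 0 in 4 libraries and Plin1 in both of crush with exosomes. The 6 fibroblast markers summed to 4389 TPM in TP replicate 2 and to 30.5 to 149.9 TPM elsewhere. The 6 lymphocyte markers stood at 28.6 TPM in control replicate 2 and 18.6 TPM in TP replicate 2, and at 0.04 to 1.39 TPM in the others. The 5 islet markers summed to between 298 and 2923 TPM, the 5 endothelial markers analysed to between 3.14 and 120.3 TPM and the 3 mesothelial markers to between 2.28 and 115 TPM. Several members are expressed by leukocytes and fibroblasts as well as epithelium, and the part of these cells in the members' levels was not tested.

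**Figure D4:**
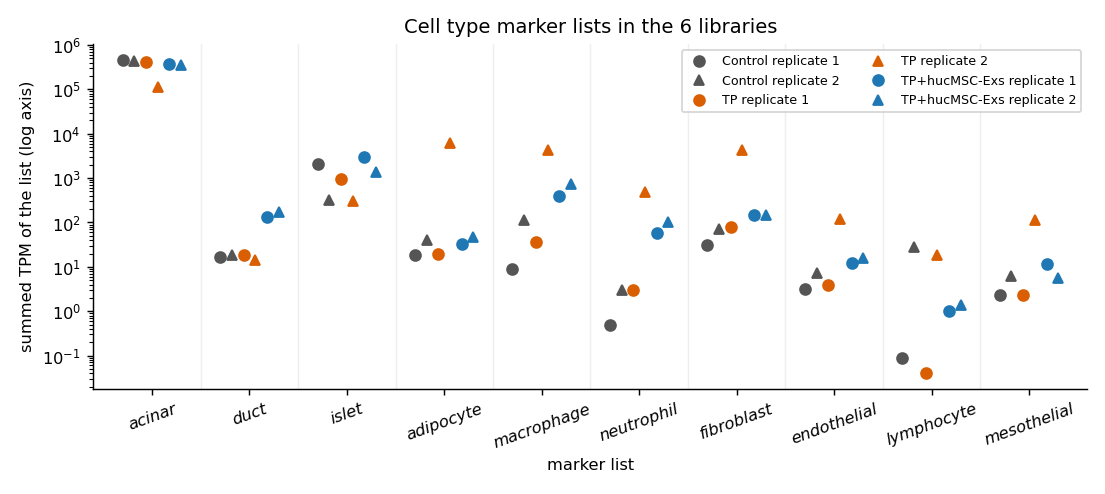
Summed TPM of each cell type marker list (x axis) in the 6 libraries, on a log axis, with circles for replicate 1 and triangles for replicate 2. TP replicate 2 has the highest sums for adipocyte (6031 TPM), macrophage (4406 TPM) and fibroblast (4389 TPM) markers and the lowest for acinar markers (112363 TPM).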

How the data were processed

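Pancreas RNA from 6 rats was analysed from a table of gene TPM that the authors deposited, with 1 column per library and their group means, which were not tested. Per the labels' protocols, a column kit gave total RNA and a SMARTer mRNA kit the libraries. Which aligner and quantifier were run is not given in the sources used here. Mouse builds are named in the submitters' processing notes, while the table carries rat Ensembl identifiers, so no coordinates of the table's build are given. The TP columns, whose names hold an unexplained number, were assigned by group name and replicate number. The deposited TPM sum to the same total in each library and hold no depth, so no counting error could be given.

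Genes with a mean of at least 1 TPM were kept (11477). Values were taken as log2(TPM + 0.5) and fitted over all 6 libraries with limma 3.58.1 in R 4.3.3, with a variance trend, 3 residual degrees of freedom, Benjamini-Hochberg adjustment and a threshold of 0.05. Median-of-ratios factors came from 10746 genes above 0 in all libraries. With 2 against 2, an exact permutation test cannot go below 0.333. P-values measure the spread between these libraries. For deposited values the prior degrees of freedom were infinite. Each of those p-values therefore used a spread fitted over all genes at that level, not the gene's own. Scripts were tested on simulated data. Upstream sequences came from RefSeq tables of build GRCr8, which held 9 of 10 members.

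Members, gene lists, tests and alternatives were chosen with earlier results of these data known. The genes named are all 10 members, the pathway genes past the threshold, the 2 of highest mean TPM in each role, and the 3 nearest in pattern to Stat3, Osmr and Socs3. Some genes this rule selects are not reported here. Il6, Lif, Osm, Ptpn2 and Junb were named in addition, after their values were seen, as were the genes holding the searched element and, for markers, Mpo, Lep and Plin1. Alternatives were other pseudocounts (0.1 and 1), other filters, scaling, no trend, only the groups compared, a replicate block and leaving out each library, with the expression filter set anew on the libraries left in each fit.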

Additional observations from a re-analysis of the deposited data

How the results depend on the processing

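P-values rest on 2 libraries a group, and TPM without depth give no counting error. No member passed limma as reported, so the directions below are of values that did not pass. The cause of the changes was not tested, except that fewer libraries, or the absence of the TP pair's difference from the spread, follow from how some alternatives are built. In crush alone against control, limma called 6 genes, but 14 with a pseudocount of 0.1, 0 with no filter (160 at an unadjusted p below 0.05), 0 with scaling (669 at an unadjusted p below 0.05), 0 with only the groups compared (81 at an unadjusted p below 0.05) and 10 with a replicate block. Leaving out 1 library gave 0 to 11064 genes and 0 to 9 members. With scaling it was 2840 genes and 3 members without TP replicate 1, and 5 genes and 0 members without TP replicate 2. The direction turned for Stat3 (-0.12), Il6st (-0.02), Il6r (-0.09) and Lifr (-1.27) with scaling, for Stat3 (-0.16) and Lifr (-1.82) with scaling and without TP replicate 1, for Stat3 (-0.13), Il6st (-0.59), Cebpd (-0.25), Il4r (-0.09), Il6r (-0.76) and Lifr (-0.78) with scaling and without TP replicate 2. Leaving out 1 library also turned it for Lifr (-0.71 to 1.16), Stat3 (-0.09 to 3.24), Il6st (-0.54 to 3.86), Cebpd (-0.21 to 4.14), Il4r (-0.12 to 5.53) and Il6r (-0.68 to 3.61), over all libraries left out. In crush with exosomes against crush alone, limma called 8 genes, but 0 with no filter (315 at an unadjusted p below 0.05), 2 with scaling, 1 with only the groups compared and 22 with a replicate block. Leaving out 1 library gave 0 to 9893 genes and 0 to 8 members. With scaling it was 1360 genes and 0 members without TP replicate 1, and 68 genes and 0 members without TP replicate 2. The direction turned for Il6st (0.01) and Il4r (0.1) with a pseudocount of 0.1, for Osmr (-0.21) with a pseudocount of 1, for Il6st (0.28), Socs3 (0.09), Pim1 (0.04) and Il4r (0.35) with scaling, for Osmr (-0.58) with scaling and without TP replicate 1, for Il6st (0.84), Socs3 (0.66), Pim1 (0.26), Il4r (1.55), Il6r (0.66) and Lifr (-0.06) with scaling and without TP replicate 2. Leaving out 1 library also turned it for Stat3 (-1.58 to 1.75), Osmr (-2.55 to 2.56), Bcl3 (-1.55 to 2.7), Cebpd (-1.59 to 2.76), Lifr (-0.79 to 1.08), Il6st (-2.26 to 2.14), Socs3 (-2.45 to 1.87), Pim1 (-2.02 to 1.27), Il4r (-2.89 to 2.76) and Il6r (-2.66 to 1.62), over all libraries left out. In crush with exosomes against control, limma called 24 genes, but 12 with a pseudocount of 1, 0 with no filter (368 at an unadjusted p below 0.05), 2 with scaling and 6550 with only the groups compared. Leaving out 1 library gave 1 to 6135 genes and 0 to 8 members. With scaling it was 177 genes and 1 member without TP replicate 1, and 789 genes and 3 members without TP replicate 2. With only the groups compared, 8 members passed. The direction turned for Il6r (-0.11) and Lifr (-0.89) with scaling, for Il6r (-0.11) and Lifr (-0.91) with scaling and without TP replicate 1, for Il6r (-0.11) and Lifr (-0.85) with scaling and without TP replicate 2. Leaving out 1 library also turned it for Lifr (-0.24 to 0.98), over all libraries left out. The number of members above both controls after scaling ranged from 7 to 9 for crush with exosomes (30.6% to 45.5% of all genes) and from 3 to 6 for all 4 libraries of crushed pancreas (12.9% to 27.9% of genes), leaving out 1 library at a time, an alternative added after seeing the data. Replicate numbers were not taken as pairs: deviations of same-numbered libraries correlated at 0.28, 0.08 and 0.14 between the pairs of groups. A correlation over genes leaves out a shift shared by all genes, so it cannot exclude pairing. The scaling factor was larger in replicate 2 of each group (0.629, 5.38 and 1.46 against 0.359, 0.474 and 1.19). The replicate block gave 35 genes in crush with exosomes against control and 0 members in each comparison. Of 157 member values recomputed per comparison, 127, 120 and 122 kept both direction and side of the threshold.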
